A study of Mus musculus with 6 samples.

Results

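The genes described are 10 markers of the extraembryonic and definitive endoderm, chosen by name and not by a threshold on their values. These genes were picked with earlier results of these data known. They comprise the transcription factors Gata4, Gata6, Sox17, Sox7 and Foxa2, the endocytic receptor genes Cubn, Amn and Lrp2, the endocytic adaptor gene Dab2, and the growth factor receptor gene Pdgfra. All 10 had a row among the 24191 genes of the deposited table, found by GENCODE M21 symbol, and all 10 passed the filter on low values. PolyA RNA was sequenced from J1 mouse embryonic stem cells, an established line, with 3 libraries of wild-type (WT) cells and 3 of cells with both Mettl5 copies disrupted (Mettl5 -/-, called Mettl5 knockout here). Mettl5 encodes a methyltransferase that places N6-methyladenosine on ribosomal RNA, and the series title names pluripotency and developmental programmes as its subject. Cells of both genotypes were kept for 7 days in serum with LIF, the cytokine that holds mouse embryonic stem cells in self-renewal. Whether the libraries of a genotype came from separate cultures or clones is not stated in the labels. The p-values therefore measure only the spread between these libraries, which may be technical.

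Levels are given on the deposited TPM scale, a value per transcript length that can be compared between genes. Fold changes are log2 differences, knockout against WT, of the deposited scaled reads + 1, with their standard error (SE), and they understate the change of low genes. A gene was called higher or lower when its limma p, adjusted by Benjamini-Hochberg over all 24183 genes tested, was below 0.05. Sequencing depth, estimated from the values, was 38540000 to 59640000 fragments per library. The targeted gene, Mettl5, was at 50.3, 48.6 and 48.7 in WT but at 3.65, 3.58 and 3.32 after its disruption, which matched the labels.

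In the early embryo, Gata6 and then Gata4, Sox17, Sox7 and Pdgfra mark the primitive endoderm, the cell layer that forms the visceral and parietal endoderm of the yolk sac. Visceral endoderm takes up maternal nutrients through the large receptors cubilin and megalin, encoded by Cubn and Lrp2, with amnionless (Amn) bringing cubilin to the cell surface and Dab2 linking the receptors to clathrin. Foxa2 and Sox17 serve again in the definitive endoderm, the origin of the gut, and a small fraction of cells in serum and LIF cultures is known to drift towards primitive endoderm.

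Of the 10 genes, 8 were lower in the knockout libraries, 1 was higher and 1 did not pass the test. Gata4, Gata6, Sox17, Sox7, Cubn, Amn, Dab2 and Pdgfra fell, Lrp2 rose, and Foxa2 was not called. Among all genes tested, 28.9% were called lower and 33.6% higher, 62.6% in all, so that a call by itself was common. The share of these 10 genes called lower stood above the background. Because the genes were picked with earlier results of these data known, that comparison is a description and carries no test. All 8 genes that fell did so by at least 1 on the log2 scale, which 9.93% of all genes tested did. All knockout libraries lay below all WT libraries for these 8, as for 35.7% of genes tested, and above them for Lrp2, as for 32.5%. The same 8 were called lower against a 1.5-fold change, where 9.01% of genes were, and with libraries rescaled to equal totals, where 37.8% were; that rescaling turned the split of all called genes from 8137 higher and 6998 lower to 6309 higher and 9147 lower. The median log2 fold change over the 10 genes was -1.46, against 0.00 over all genes tested. In bulk RNA, fewer cells of a type and less RNA per cell cannot be told apart.

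**Figure D1:**
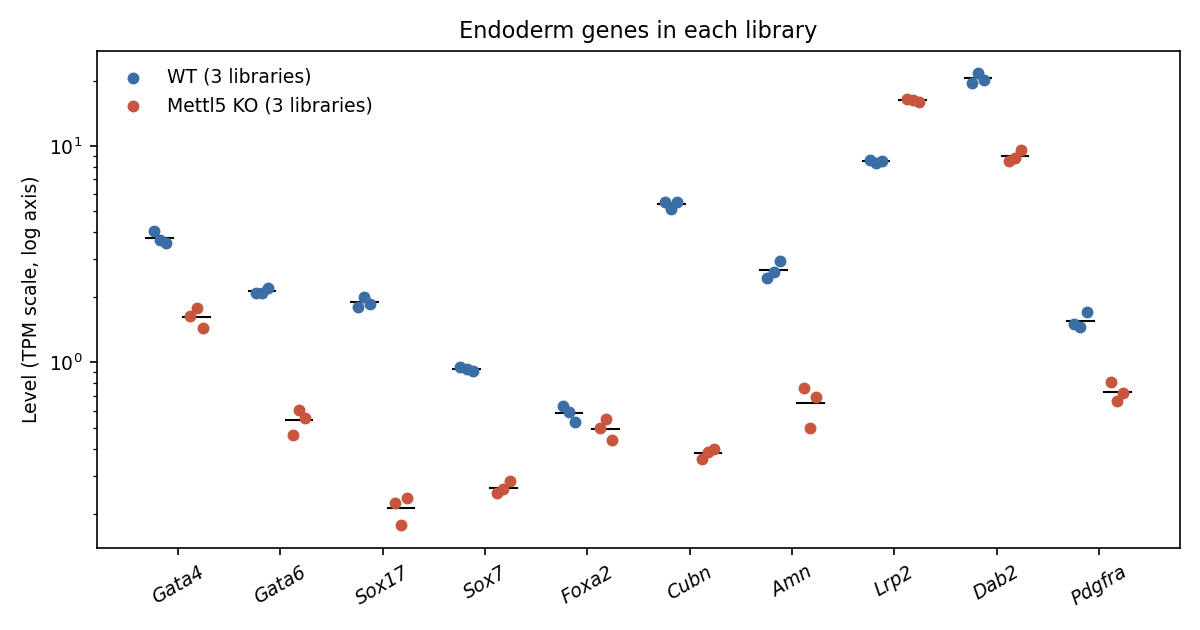
Level of each endoderm gene on the TPM scale (log axis) in the 3 WT and 3 Mettl5 knockout libraries; points are libraries and bars are group means. The knockout points lie below the WT points for 8 genes, above them for Lrp2, and among them for Foxa2.

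The levels were low beside those of pluripotency genes. Pou5f1, the defining factor of pluripotent cells, averaged 1498 ± 54.2 (SD, n = 3) in WT and 1330 ± 41.7 (SD, n = 3) in knockout libraries. Of 8 pluripotent stem cell markers, 3 were higher, 4 lower and 1, Nanog, not called, with a median of -0.02. Over all genes tested the shares were 33.6% higher and 28.9% lower. With libraries rescaled to equal totals all 8 markers were called, Nanog included, 3 higher and 5 lower. Zfp42 and Esrrb, both naive pluripotency genes, fell by 1.24 and 0.88 on the log2 scale, and the RNA-binding protein gene Lin28a rose by 0.61. The 10 endoderm genes had a summed level of 47.2 to 48.5 in WT, against 30.01 to 30.3 in the knockout. Dab2 and Lrp2 made up most of both sums, and 8 of the 10 genes averaged at least 1 in WT but 3 did in knockout libraries. None of the 10 was listed at 0 in any library.

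Gata4 and Gata6 encode zinc finger factors that bind GATA motifs, and forced expression of either turns mouse embryonic stem cells into extraembryonic endoderm. Gata4 (ENSMUSG00000021944, chr14:63198922-63271692, minus strand, mm10) stood at 4.07, 3.68 and 3.56 in WT libraries 1 to 3 and at 1.64, 1.78 and 1.45 in knockout libraries 1 to 3. The highest knockout library lay well below the lowest WT library. Limma put the log2 fold change at -1.16 (SE 0.0988, adjusted p = 5.95e-06), and the mean level was 2.33-fold lower. Gata6 (ENSMUSG00000005836, chr18:11052064-11085635, plus strand) stood at 2.09, 2.10 and 2.20 in WT and at 0.462, 0.602 and 0.557 in knockout libraries. Its WT libraries were close to one another and all above the knockout libraries, with a log2 fold change of -1.86 (SE 0.175, limma adjusted p = 1.18e-05) and a 3.94-fold lower mean. With each library's log2 values centred on their median for the chromosome, the Gata6 change was -2.47.

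Gata6 shares its start region with 1010001N08Rik, a noncoding gene read from the opposite strand whose start lies 0.503 kb away. That gene stood at 1.18, 1.22 and 1.04 in WT and at 0.183, 0.150 and 0.216 in knockout libraries, with no overlap. It fell by 2.43 on the log2 scale (limma adjusted p = 1.35e-05), so both genes of the pair were lower. No source used here gives the strand setting of the counting, so reads of the 2 genes over their shared bases cannot be told apart. Sox17, Pdgfra and Dab2 also overlap annotated opposite-strand genes, which were not analysed here. Of the 8 tested genes whose bodies lie within 500 kb of Gata6, this one included, 3 were higher, 2 lower and 3 not called. Over all genes tested the shares were 33.6% higher and 28.9% lower.

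Sox17 and Sox7 encode closely related SOX factors of the F group, which act downstream of the GATA factors in primitive endoderm. Sox17 (ENSMUSG00000025902, chr1:4490931-4497354, minus strand) stood at 1.81, 2.01 and 1.87 in WT and at 0.225, 0.177 and 0.236 in knockout libraries. This was the largest fall among the 5 transcription factors in log2 fold change, at -3.04 (SE 0.162, limma adjusted p = 2.39e-07), or 8.93-fold on the mean level. Sox7 (ENSMUSG00000063060, chr14:63943673-63950732, plus strand) stood at 0.954, 0.935 and 0.917 in WT and at 0.249, 0.259 and 0.283 in knockout libraries. All WT libraries lay above all knockout libraries for both genes, and the Sox7 change was -1.76 (SE 0.110, limma adjusted p = 7.06e-07). Gata4 and Sox7 lie 672 kb apart on chromosome 14. Of the 13 tested genes within 500 kb of Gata4, 6 were lower, 3 higher and 4 not called, with a median log2 fold change of -0.18. Of the 9 within 500 kb of Sox7, 2 were lower, 3 higher and 4 not called, with a median of 0.07. Over all genes tested the shares were 28.9% lower and 33.6% higher.

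Foxa2 encodes a forkhead factor of the visceral endoderm, node and definitive endoderm, and it was the exception among the transcription factors. Foxa2 (ENSMUSG00000037025, chr2:148042877-148046969, minus strand) stood at 0.633, 0.594 and 0.528 in WT and at 0.496, 0.548 and 0.439 in knockout libraries. The groups overlapped, since knockout library 2 was above WT library 3. Limma put the log2 fold change at -0.18 (SE 0.169, adjusted p = 0.375), and its 95% interval ran from -0.57 to 0.20. That interval holds a fall to 0.676 of the WT level as well as a rise to 1.15 of it, so the direction was not settled. Foxa2 had 34.5 to 47.6 scaled reads per library. The intervals of the other 4 factors all lay below that of Foxa2, the nearest being Gata4 at -1.38 to -0.93.

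**Figure D2:**
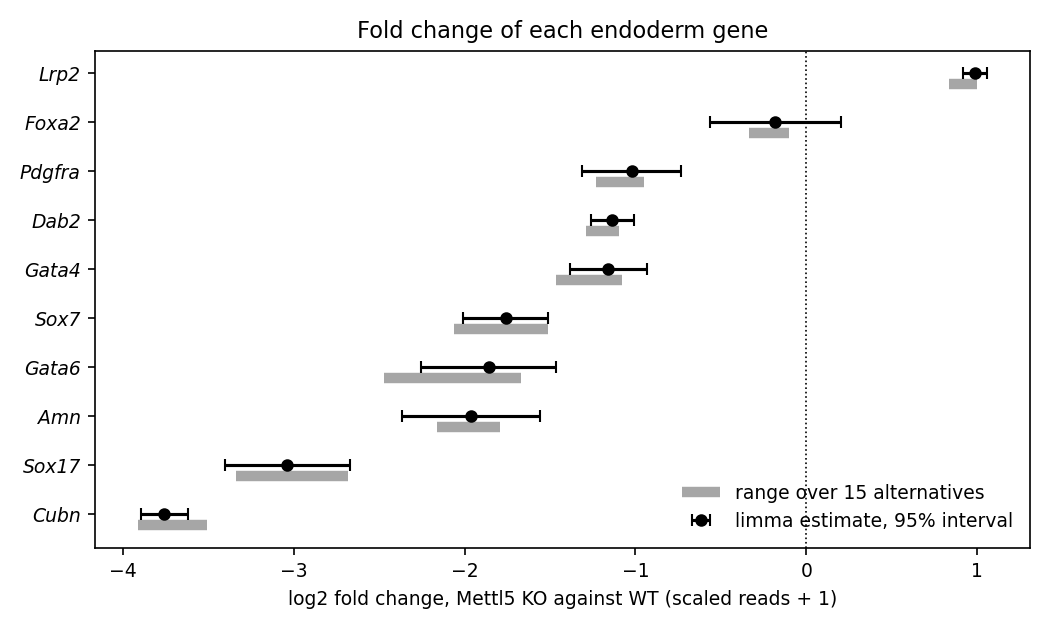
Log2 fold change of each endoderm gene, Mettl5 knockout against WT, with the limma 95% interval (black) and the range over 15 alternative settings (grey). Cubn and Sox17 lie farthest to the left at -3.76 and -3.04, Foxa2 spans 0, and Lrp2 alone lies to the right at 0.99.

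Cubilin is a giant receptor with no membrane anchor of its own that binds intrinsic factor with vitamin B12, albumin and apolipoprotein A-I. Cubn (ENSMUSG00000026726, chr2:13276338-13491813, minus strand) stood at 5.49, 5.12 and 5.52 in WT and at 0.360, 0.387 and 0.399 in knockout libraries. The spread within each genotype was small beside the gap between them. Limma put the log2 fold change at -3.76 (SE 0.0608, adjusted p = 1.27e-10), a 14.1-fold lower mean and the largest change among the 10 genes. Gm13270, a noncoding gene read from the opposite strand inside Cubn, averaged 0.253 in WT and 0.233 in knockout libraries and was not called (log2 fold change -0.05, limma adjusted p = 0.855). Of the 8 tested genes within 500 kb of Cubn, 6 were higher, 1 lower and 1 not called. Over all genes tested the shares were 33.6% higher and 28.9% lower. Near Cubn, the intermediate filament gene Vim rose by 2.63, and the sialyltransferase gene St8sia6 fell by 1.37 on the log2 scale. These neighbours were named after their values were seen.

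Amnionless anchors cubilin in the membrane, and the pair forms the cubam receptor. Amn (ENSMUSG00000021278, chr12:111271095-111276426, plus strand) stood at 2.46, 2.62 and 2.96 in WT and at 0.761, 0.499 and 0.690 in knockout libraries. All knockout libraries were below all WT libraries, with the widest relative spread of the 10 genes in the knockout (20.9% of the mean). Limma put the log2 fold change at -1.96 (SE 0.178, adjusted p = 9.00e-06), or 4.12-fold on the mean level.

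Dab2 encodes a clathrin adaptor that binds the tails of megalin and related receptors and is abundant in extraembryonic endoderm. Dab2 (ENSMUSG00000022150, chr15:6299788-6440712, plus strand) stood at 19.6, 21.6 and 20.2 in WT and at 8.56, 8.75 and 9.54 in knockout libraries. It was the most abundant of the 10 genes in WT and the second in the knockout, at a 2.29-fold lower mean. Limma put the log2 fold change at -1.14 (SE 0.0555, adjusted p = 1.37e-07).

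Megalin, the product of Lrp2, is the partner of cubilin in visceral endoderm and kidney tubule, and it is also made by neuroepithelium and other epithelia. Lrp2 (ENSMUSG00000027070, chr2:69424340-69586065, minus strand) stood at 8.62, 8.33 and 8.52 in WT and at 16.4, 16.4 and 16.03 in knockout libraries. Every knockout library was above every WT library. Limma put the log2 fold change at 0.99 (SE 0.0311, adjusted p = 7.71e-09), a 1.92-fold higher mean, and it was 0.83 when the libraries were rescaled to equal totals. Lrp2 was the only one of the 10 genes that rose, also under each of the 15 alternative settings.

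Lrp2 lies on the same chromosome as the targeted gene, 285.1 kb from Mettl5 (chr2:69871198-69885615). Of 18 tested genes within 500 kb of Lrp2, 7 were higher, 5 lower, Mettl5 among them, and 6 not called, with a median log2 fold change of 0.01. Over all genes tested 33.6% were higher and 28.9% lower, and these counts lie near those shares. Klhl41, a muscle gene, rose by 1.22 from 0.0884 to 0.209 on the TPM scale, Nostrin, an endothelial trafficking gene, fell by 2.30, and Ubr3, a ubiquitin ligase gene next to Mettl5, fell by 0.46 on the log2 scale. These 3 were chosen after their values were seen. Whether the position of Lrp2 near the targeted gene has a part in its rise was not tested.

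**Figure D3:**
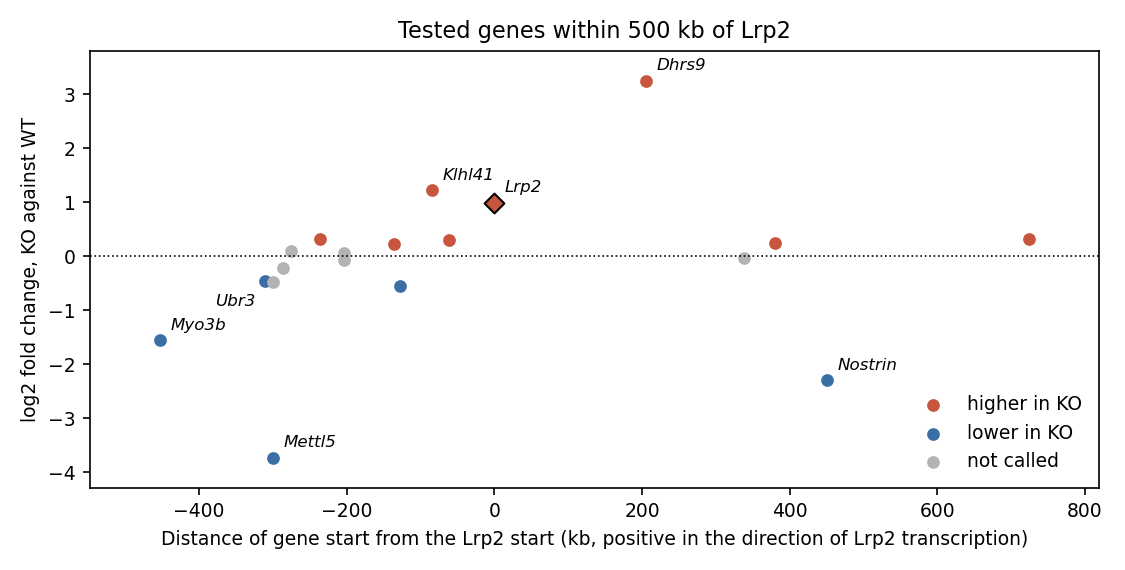
Log2 fold change, Mettl5 knockout against WT, of tested genes whose bodies lie within 500 kb of Lrp2, against the distance of their start from the Lrp2 start (kb). The diamond marks Lrp2 at 0.99; the 18 neighbours lie on both sides of 0, with Mettl5 at -3.73.

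The stretches before the first RefSeq start of Cubn, Lrp2 and Dab2 are shown because these endocytic genes work together yet Cubn and Dab2 fell while Lrp2 rose. They come from RefSeq on GRCm38.p6, read in the direction of the gene at chr2:13491877-13492126 (Cubn, minus strand), chr2:69586066-69586279 (Lrp2, minus strand) and chr15:6299539-6299787 (Dab2, plus strand), without bases that GENCODE M21 places inside the gene. Capitals mark matches to a GATA-type motif, searched on both strands as the letters AGATAA, the same with a final G (AGATAG), the same with an initial T (TGATAA) and the same with both changes (TGATAG).
Cubn: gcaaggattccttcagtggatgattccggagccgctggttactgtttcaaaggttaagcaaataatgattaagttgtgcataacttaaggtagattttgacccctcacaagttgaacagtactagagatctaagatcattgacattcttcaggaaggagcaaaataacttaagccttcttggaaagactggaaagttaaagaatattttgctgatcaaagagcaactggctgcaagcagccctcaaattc
Lrp2: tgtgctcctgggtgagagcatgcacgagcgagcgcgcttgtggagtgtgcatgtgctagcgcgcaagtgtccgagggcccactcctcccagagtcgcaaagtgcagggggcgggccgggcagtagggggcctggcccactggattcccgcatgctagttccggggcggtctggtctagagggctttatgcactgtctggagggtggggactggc
Dab2: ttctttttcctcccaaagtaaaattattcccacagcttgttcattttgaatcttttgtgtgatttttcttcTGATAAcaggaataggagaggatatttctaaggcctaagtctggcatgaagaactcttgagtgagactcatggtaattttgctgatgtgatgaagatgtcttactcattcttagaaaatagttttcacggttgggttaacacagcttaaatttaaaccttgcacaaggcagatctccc

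RefSeq promoters were used for 6 of the 10 genes, 9 in all. Member promoters on chromosome 18, where Gata6 lies, were left out. Over the 250 bases before the start, the Cubn promoter had a GC content of 39.6% and 2 CpG dinucleotides, and the first Dab2 promoter had 36.8% and 2. The Lrp2 promoter had 66.4% and 18. Amn, which fell, had 61.2% and 11, Pdgfra, which also fell, had 54.4% and 4, and a later start of Dab2 had 60.0% and 17. Lrp2 thus had higher values than any promoter here of a gene that fell. However, 1 start of Foxa2, which was not called, had 67.2% and 20. Whether GC content has a part in the direction of change was not tested. Over all 32851 promoters of that length the medians were 52.4% and 6. A GATA-type match was present in 2 of the 9 promoters, TGATAA at the first start of Dab2 and AGATAA at 1 of the 3 starts of Foxa2, against 26.5% of all promoters. A match is a description of letters and not a measured site, and no match says only that these letters are not in the window.

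The ratio of 2 genes within a library does not depend on how the libraries were scaled. The ratio of Cubn to Amn was 2.24, 1.95 and 1.87 in WT and 0.473, 0.775 and 0.578 in knockout libraries, so that cubilin transcripts were above those of amnionless in every WT library and below them in every knockout library. The ratio of Cubn to Lrp2 was 0.637, 0.615 and 0.648 in WT and 0.0219, 0.0236 and 0.0249 in knockout libraries, 27.0-fold lower on the mean. Dab2 to Lrp2 went from 2.28, 2.60 and 2.37 to 0.521, 0.535 and 0.595, which means that Dab2 was the more abundant of the pair in every WT library and Lrp2 in every knockout library.

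Among the transcription factors, the ratio of Sox17 to Sox7 was 1.90, 2.15 and 2.04 in WT and 0.905, 0.682 and 0.834 in knockout libraries, so their order turned as well. Gata6 to Gata4 went from 0.513, 0.571 and 0.618 to 0.282, 0.338 and 0.385, and Gata4 to Foxa2 from 6.43, 6.21 and 6.74 to 3.30, 3.25 and 3.29. The genes that fell thus did so by unequal amounts. For each of the 11 ratios computed the groups did not overlap. The two-sided exact permutation p was 0.1, raw and after Benjamini-Hochberg adjustment, which is the smallest that 3 against 3 libraries allow. The pairs join genes chosen with earlier results of these data known, whose fold changes differ. The lack of overlap therefore restates those changes and is no further support. How often gene pairs in general do not overlap was not computed.

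**Figure D4:**
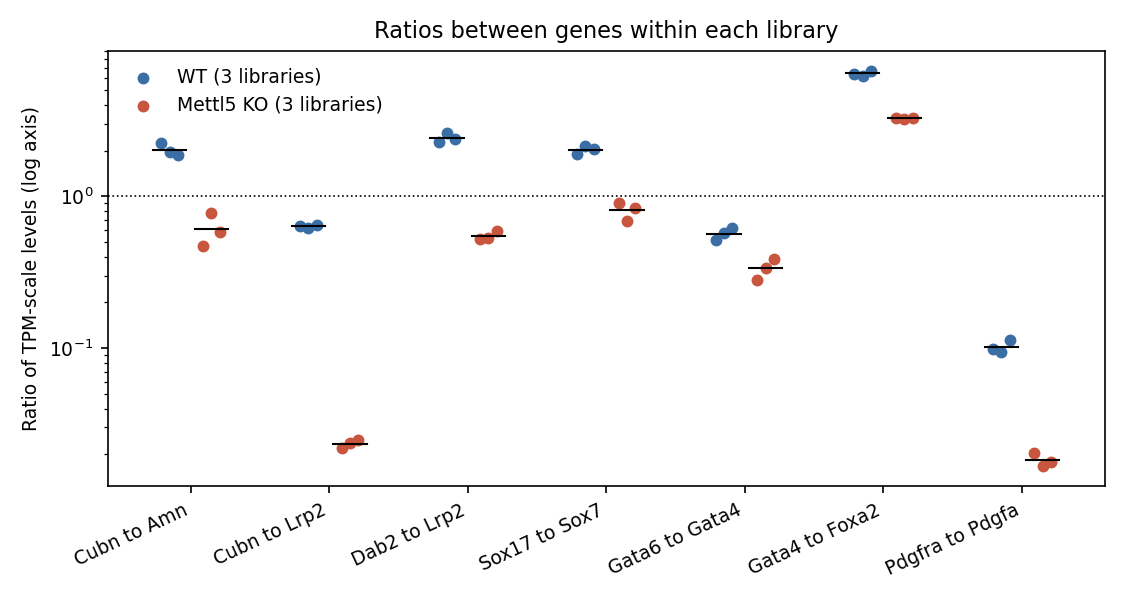
Ratio of the TPM-scale levels of 2 genes within each library (log axis) for 7 pairs, in 3 WT and 3 Mettl5 knockout libraries; bars are group means and the dotted line is a ratio of 1. Cubn to Amn, Dab2 to Lrp2 and Sox17 to Sox7 lie above 1 in WT and below 1 in the knockout.

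On the TPM scale the order of the WT levels was Dab2, Lrp2, Cubn, Gata4, Amn, Gata6, Sox17, Pdgfra, Sox7 and Foxa2, and no neighbouring pair in it overlapped between libraries. In the knockout the order was Lrp2, Dab2, Gata4, Pdgfra, Amn, Gata6, Foxa2, Cubn, Sox7 and Sox17. The libraries of Pdgfra and Amn, of Amn and Gata6, and of Gata6 and Foxa2 overlapped there. Cubn moved from position 3 to position 8, and Sox17 from 7 to 10.

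Pdgfra encodes the receptor for PDGF-A and marks primitive endoderm, where it promotes survival. Pdgfra (ENSMUSG00000029231, chr5:75152292-75198215, plus strand) stood at 1.501, 1.46 and 1.71 in WT and at 0.812, 0.666 and 0.720 in knockout libraries. The groups did not overlap, and limma gave a log2 fold change of -1.02 (SE 0.128, adjusted p = 8.59e-05), or 2.13-fold on the mean level. The ligands went the other way. Pdgfa, which encodes the main ligand of this receptor, stood at 15.2, 15.6 and 15.2 in WT and at 40.02, 39.9 and 40.7 in knockout libraries, and rose by 1.45 on the log2 scale (limma adjusted p = 9.26e-10). Within libraries the ratio of Pdgfra to Pdgfa went from 0.0936 to 0.113 in WT down to 0.0167 to 0.0203 in the knockout.

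The other ligand genes and the second receptor were higher too, so all 5 other PDGF genes passed the test in that direction, with a median of 1.91. Over all genes tested, 33.6% passed as higher. Pdgfb rose by 1.91, from 3.07 ± 0.116 to 11.1 ± 0.210 (SD, n = 3 each), and Pdgfc rose by 2.34, from 2.53 ± 0.175 to 12.4 ± 0.207 (SD, n = 3 each). Pdgfd, the least abundant, rose by 3.30 from 0.100 to 0.998. Pdgfrb, which encodes the receptor of mesenchymal and mural cells, rose by 0.48 (limma adjusted p = 7.3e-05). With each library's log2 values centred on their median for the chromosome, the value was -0.13 and did not pass (limma adjusted p = 0.0827). That centring moves values by the median level and not by the median fold change, which was 0.21 on chromosome 18.

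The lists that follow were put together with earlier results of these data known, so their counts describe these libraries and carry no test of the list. For comparison, 33.6% of all genes tested were called higher and 28.9% lower. A split near those shares is not particular to a list. Among 16 other endoderm transcription factors, 6 were higher, 6 lower and 4 not called, with a median log2 fold change of -0.18. With libraries rescaled to equal totals, or with each chromosome centred, the split was 5 higher and 9 lower. Nr5a2, a nuclear receptor gene shared by naive pluripotent and endoderm cells, fell by 0.60 from 25.2 ± 1.48 to 15.95 ± 0.0769 (SD, n = 3 each). Hnf4a, the central nuclear receptor gene of visceral endoderm and liver, stood at 0.728, 1.23 and 0.681 in WT and at 0.117, 0.152 and 0.102 in knockout libraries. It fell by 2.45 (limma adjusted p = 0.000106) and was named after its values were seen.

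Relatives of the 5 factors did not share 1 call. Foxa3, a forkhead gene of gut and visceral endoderm, fell by 0.94 (limma adjusted p = 3.41e-05), from 2.11 ± 0.0187 to 1.06 ± 0.131 (SD, n = 3 each). Foxa1 averaged 0.0951 in WT and 0.196 in knockout libraries, with a log2 fold change of 1.07 and a limma adjusted p of 0.0274. It did not pass without WT library 2 (limma adjusted p = 0.0767), knockout library 1 (0.0935) or knockout library 2 (0.0501), nor with each chromosome centred (0.0586). Gata5 averaged 0.140 and 0.108 (log2 fold change -0.26, limma adjusted p = 0.51). Sox18, the remaining SOX gene of the F group, averaged 1.13 and 0.896 (log2 fold change -0.27, limma adjusted p = 0.13). Sox18 passed as lower with equal totals, at -0.43 (limma adjusted p = 0.028), and with each chromosome centred, at -0.42 (limma adjusted p = 0.0321).

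The partner proteins of GATA factors, FOG1 and FOG2, are encoded by Zfpm1 and Zfpm2. Zfpm2 stood at 0.0793, 0.0492 and 0.0597 in WT and at 1.34, 1.33 and 1.24 in knockout libraries. All its knockout libraries were above all its WT libraries, and it rose by 4.35 (limma adjusted p = 3.85e-08), while Gata4 and Gata6 fell. Zfpm1 stood at 2.90, 3.05 and 2.51 in WT and at 3.54, 3.56 and 3.32 in knockout libraries, with a log2 fold change of 0.38 and a limma adjusted p of 0.0163. That call was lost with equal totals (limma adjusted p = 0.119), without WT library 3 (0.0523) and without knockout library 2 (0.0515).

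Genes of differentiated visceral endoderm were divided. Of 17 genes tested, 8 were higher, 8 lower and 1 not called, with a median of 0.02; Afp, Ttr and Apoa4 were not analysed here. The 3 with the smallest p-values all rose. Bmp2, a signalling ligand of the visceral endoderm, rose by 4.81 from 0.116 to 3.21, the zinc transporter gene Slc39a8 rose by 1.66 from 1.78 to 5.44, and the transcriptional coactivator gene Cited1 rose by 3.08 from 2.80 to 22.6. The lower genes included 4 secreted carriers, named after their values were seen. The apolipoprotein genes Apoa1, Apoa2 and Apoc2 fell by 1.83, 1.88 and 2.47, and the retinol carrier gene Rbp4 fell by 1.04 from 4.50 to 2.09. The 3 apolipoprotein genes were near the floor in the knockout. Apoa1 had 2.63 to 6.74 scaled reads per library there, Apoa2 3.77 to 6.71 and Apoc2 0.288 to 5.21. Apoe, by contrast, rose by 0.44 and was the most abundant gene of the list, at 334 in WT and 429 in knockout libraries. Apart from the counts and the scaled reads, all values in this paragraph are log2 fold changes that passed the test or TPM-scale means.

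Genes of the parietal endoderm and its basement membrane mostly rose, opposite to most of the 10 endoderm genes. Of 16, 14 passed as higher and 2 as lower, and the median was 1.12. Over all genes tested the shares were 33.6% higher and 28.9% lower. Serpinh1, a collagen chaperone gene, rose by 1.92 from 63.6 ± 1.32 to 231 ± 2.07 (SD, n = 3 each), and the keratin gene Krt19 rose by 3.55 from 12.6 ± 0.813 to 139.9 ± 3.17 (SD, n = 3 each). Lama1, which encodes the alpha-1 chain of laminin-111, was 1 of the 2 that fell. It stood at 15.2, 15.2 and 15.3 in WT and at 3.12, 2.96 and 3.30 in knockout libraries, so that it fell by 2.23 on the log2 scale (limma adjusted p = 6.87e-10). The other was the hormone receptor gene Pth1r, at -0.77. The ratio of Lama1 to Lamb1, the beta-1 chain of the same laminin, went from a mean of 0.719 to 0.0962 within libraries. Many of these genes are also made by mesenchyme. Of 12 fibroblast and mesenchyme markers, 11 were higher and 1, Thy1, lower; their summed level was 15.2 to 17.8 in WT but 48.2 to 49.8 in the knockout. The collagen gene Col1a2 rose by 2.98, the calcium-binding protein gene S100a4 by 3.68 and the fibrillin gene Fbn1 by 1.84 on the log2 scale. Lum was listed at 0 in 1 WT library. Their part in the rise of the basement membrane genes was not tested.

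Markers of the anterior visceral and definitive endoderm were divided, with 5 of 12 higher, 5 lower and 2 not called, and a median of 0.48; Cer1, Nepn, Pyy and Shh were not analysed here. Lefty1, a secreted Nodal inhibitor gene that stem cells also make, rose by 0.82 from 44.9 to 75.9. Eomes, a T-box gene of the primitive streak and definitive endoderm, rose by 2.11 from 0.987 to 4.14. Fzd5, a Wnt receptor gene of visceral endoderm, fell by 1.20 from 12.2 to 5.12. Sox17 and Eomes, both used to mark definitive endoderm, thus moved in opposite directions, and Foxa2 was not called.

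**Figure D5:**
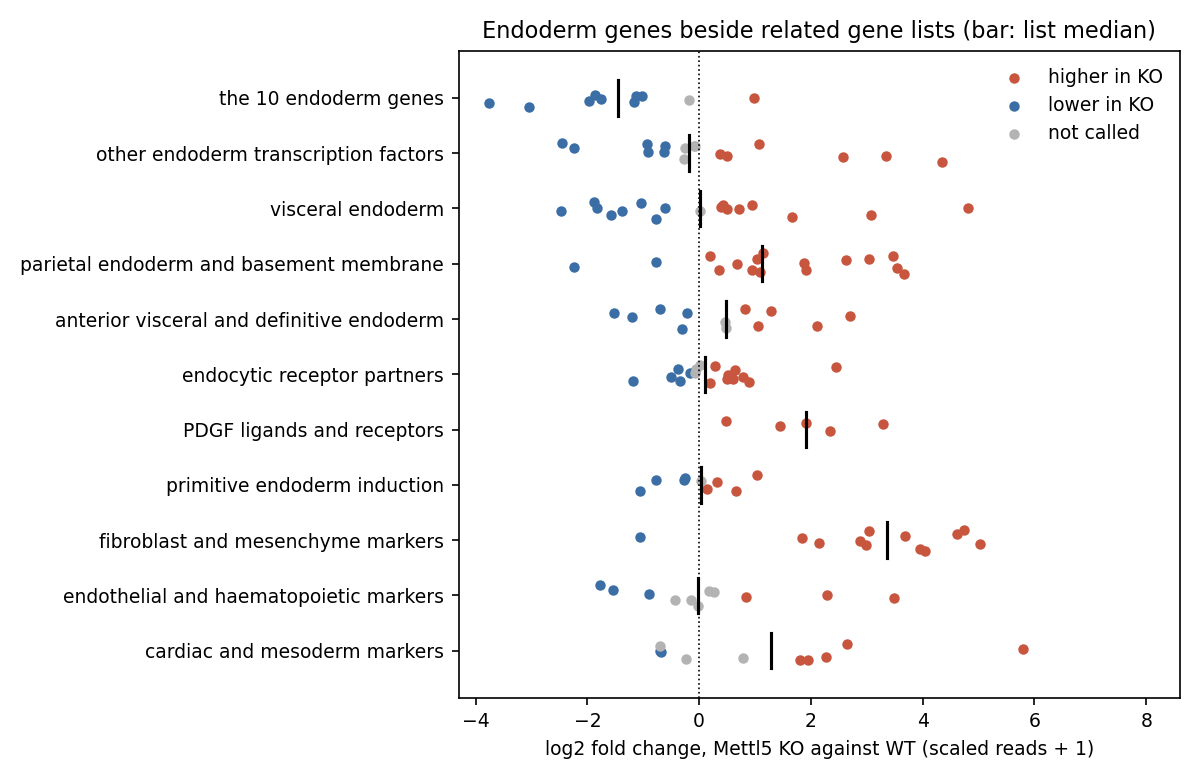
Log2 fold change, Mettl5 knockout against WT, of each tested gene of the 10 endoderm genes and of 10 related lists; points are genes, coloured by call, and black bars are list medians. The median of the 10 endoderm genes is -1.46, that of the parietal endoderm and basement membrane list 1.12 and that of the PDGF list 1.91.

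The partners of the endocytic receptors were divided. Of 18 tested, 9 were higher, 6 lower and 3 not called, with a median of 0.11; Cblif, the intrinsic factor gene, was not analysed here. Lrpap1 encodes the chaperone that escorts megalin to the cell surface. It stood at 46.02, 49.2 and 49.4 in WT and at 85.0, 83.1 and 87.0 in knockout libraries, and rose by 0.89 (limma adjusted p = 8.25e-08), near the 0.99 of Lrp2. Clcn5, an endosomal chloride transporter gene, rose by 2.46 on the log2 scale from 5.28 to 28.0. Of the 6 lower genes, Fcgrt fell the most, by 1.19 from 5.38 to 2.26, and was named after its values were seen.

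Among 9 genes of primitive endoderm induction, in which FGF4 from epiblast cells acts through FGF receptors and ERK, 4 were higher, 4 lower and 1 not called, with a median of 0.04. Fgf4 fell by 0.76 (limma adjusted p = 2.83e-08), from 57.3 ± 0.996 to 32.5 ± 0.777 (SD, n = 3 each). Fgfr1, the receptor gene, rose by 1.03 from 27.0 to 53.5. Klf4, a naive pluripotency factor gene, fell by 1.05 from 33.2 to 15.3. Nanog, which opposes Gata6 in the early embryo, averaged 158 and 157 and was not called (limma adjusted p = 0.158). It was called, however, with equal totals and with each chromosome centred, where all 8 pluripotent stem cell markers passed. With equal totals the split of the 9 induction genes was 3 higher and 5 lower, with a median of -0.12.

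Several of the 10 genes are shared with other cell types, so markers of those types are given beside them. Endothelium also makes Sox7, Sox17 and Sox18. Of 11 endothelial and haematopoietic markers tested, 3 were higher, 3 lower and 5 not called. Their sum was 36.6 to 39.2 in WT but 23.4 to 24.6 in the knockout. Most of the WT sum was Pecam1, which embryonic stem cells also make. Pecam1 fell by 1.55 on the log2 scale from 28.9 ± 1.19 to 9.53 ± 0.407 (SD, n = 3 each). The VEGF receptor genes Flt1 and Kdr went the other way: Flt1 rose by 3.49 from 0.519 to 5.66 (limma adjusted p = 1.54e-08), and Kdr rose by 2.29 from 0.227 to 1.09 (limma adjusted p = 3.43e-07). Cdh5, a defining marker of endothelium, averaged 0.0966 in WT and 0.0686 in knockout libraries and was not called. Heart and mesoderm also make Gata4, Gata6 and Pdgfra. Of 10 cardiac and mesoderm markers, 5 were higher, 2 lower and 3 not called, and their sum was 7.29 to 8.58 in WT but 69.9 to 76.7 in the knockout, most of the latter the brachyury gene T, which averaged 1.18 in WT and 63.4 in knockout libraries. Nkx2-5 rose by 2.65 and Hand1 by 1.81. The part of these cell types in the values of the 10 genes was not tested.

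None of the 10 genes lies on chromosome 6, 8 or 11, where 46.4%, 53.6% and 57.5% of tested genes were called lower. On chromosomes 1, 2, 5, 12, 14, 15 and 18, which hold the 10 genes, the share was 16.9% to 27.0%.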

How the data were processed

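Gene-level values came from 3 WT and 3 Mettl5 knockout libraries. The authors' tools and build were kallisto, sleuth and mm10, per the submitters' processing notes; no version, transcript annotation or strand setting is named in the sources used here. In the deposited table there are 2 signal columns per gene and library, headed scaled_reads_per_base and tpm. They are called scaled reads and the TPM column here. Neither column holds whole counts. The scaled reads kept a step in each library, such that 29.7% to 32.8% of values between 0.5 and 40 were whole multiples of it within 0.02, against a median of 3.29% to 3.51% over all steps tried; depth was estimated from that step. Totals of the TPM column were 969840 to 978170 in WT but 1019930 to 1022470 in the knockout, so it had been rescaled.

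Limma 3.58.1 in R 4.3.3 with an intensity trend was fitted to log2(scaled reads + 1) of genes with a mean of at least 1 over the 6 libraries. Tables and plots were made with Python 3.11.15, pandas 2.3.3, numpy 2.4.6, scipy 1.17.1 and matplotlib 3.10.9, and the fit was tested on simulated data. Symbols and positions are from GENCODE M21 (GRCm38, the assembly that mm10 names), which matched 23846 identifiers. Named genes are Mettl5, the 10 endoderm genes, up to 3 genes with the smallest p-values past the threshold in each list, and relatives of the 10 genes; any other gene was chosen after its values were seen. Some genes that this rule takes are left out of the text. The 10 genes and the lists were chosen with earlier results of these data known. Alternatives were other scalings, pseudocounts and filters, the TPM column, chromosome centring, a replicate block, a test against a 1.5-fold change, and leaving out each library. Chromosome centring brought the median log2 level of every library on a chromosome to the same value, which is not a correction by the median fold change.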

Additional observations from a re-analysis of the deposited data

How the results depend on the processing

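All 10 endoderm genes kept their direction and their side of the threshold under each of 15 alternatives, 150 values in all: 8 lower, 1 higher and Foxa2 not called, also without any 1 library (9 called in each). Cubn ranged from -3.91 to -3.51, Sox17 from -3.34 to -2.68, Gata6 from -2.47 to -1.67, Lrp2 from 0.83 to 1.00, and Foxa2 from -0.34 to -0.10 with a limma adjusted p of 0.113 to 1. Over all genes, 15135 were called (8137 higher, 6998 lower), and 14030 to 14428 without 1 library. Against a 1.5-fold change, 5047 were called (2869 higher, 2178 lower), 9.01% of genes being lower; the list counts fell to 6 of 16 for other endoderm transcription factors, 9 of 17 for visceral endoderm, 6 of 12 for anterior visceral and definitive endoderm, 4 of 18 for endocytic partners, 3 of 9 for primitive endoderm induction and 2 of 8 for pluripotent markers. Equal totals gave 6309 higher and 9147 lower (37.8% of genes lower), moved the median of all genes from 0.00 to -0.15, and moved the share of higher among called genes from 53.8% to 40.8%; chromosome centring gave 44.3% and turned Pdgfrb to -0.13. With the replicate number as a block, 15110 genes were called (8183 higher, 6927 lower) and the same number of endoderm genes, 9. Same-numbered libraries did not deviate together (correlations 0.00586, 0.0249 and 0.0321 over 20917 genes, against -0.0314 to 0.00794 for other pairs). Whether they were grown or prepared together is not stated in the labels, and these correlations cannot settle it. Depth limits the low genes: Foxa2 had 34.5 to 47.6 scaled reads per library, and in the knockout Sox17 had 14.3 to 19.1, Gata6 16.2 to 21.1 and Amn 26.1 to 39.7.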
